A study of Mus musculus with 26 samples.

Results

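Mammalian mitochondria carry a small circular genome of their own, and the RNA read from it was followed here in 2 cell fractions of mouse visceral fat. The members are the 37 genes of 39017 in the count files whose symbol starts with mt-: 13 protein-coding genes, 2 ribosomal RNA (rRNA) genes and 22 transfer RNA (tRNA) genes, and all 37 were found in both files and in the GENCODE M21 annotation of GRCm38. Libraries of polyadenylated RNA came from adipocytes and from stromal vascular cells (SVCs, the other cells of the tissue) of epididymal fat of male C57BL/6J mice. The study asked what obesity leaves behind in adipose cells after weight loss, and the present comparison asks how transcripts of the mitochondrial genome differed with diet and with cell fraction.

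From 9 to 10 weeks of age the mice ate a low-fat diet with 10% fat for 12 weeks (LFD), a high-fat diet with 60% fat for 12 weeks (HFD), or the high-fat diet for 9 weeks and then the low-fat diet for 3 weeks, with about 10% loss of body weight (SW, switched). No group carried a transgene or a drug. After collagenase digestion, centrifugation parted adipocytes from a pellet of SVCs, and red cells in the pellet were lysed. The titles of the SW samples name only the low-fat diet, and the treatment label, which gives both diets, was used. Each adipocyte group had 3 libraries (A, B and C), and the SVC groups had 1 in LFD (A), 2 in HFD (A and B) and 3 in SW (A, B and C). The letters follow the numbers in the column names, only name the libraries and pair none of them. They are the order in which values are given below. The labels do not say whether each library came from its own animal, so the p-values measure the spread between these libraries.

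The mitochondrial genome is transcribed from both of its strands, called heavy and light, into long precursors, from which enzymes cut the tRNAs and so release the rRNAs and messenger RNAs that lie between them. Its messenger RNAs encode core subunits of complexes I, III, IV and V of oxidative phosphorylation, while the remaining subunits of these complexes, the ribosomal proteins and the transcription machinery of mitochondria are encoded in the nucleus and imported. White adipocytes use oxidative phosphorylation for lipid synthesis and turnover, and are known to hold fewer mitochondria per cell than brown adipocytes.

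The genes sit close together, and several share bases with a neighbour. The reading frames of mt-Atp8 (M:7766-7969, plus strand) and mt-Atp6 (M:7927-8607), subunits of complex V, share 43 bases, those of mt-Nd4l (M:9877-10173) and mt-Nd4 (M:10167-11544) of complex I share 7, and mt-Nd5 (M:11742-13565) overlaps mt-Nd6 (M:13552-14070, minus strand) by 14 bases on opposite strands. These coordinates are those of GRCm38; the submitters' processing notes name mm9, and the files hold no coordinates. mt-Nd6 is the only protein-coding gene among the 9 light-strand genes of the annotation. The sequences of mt-Atp8 and mt-Nd4l are shown because their counts relative to the gene they overlap differed with diet in adipocytes, as given below. No annotated tRNA gene lies between the genes of either pair, so the cutting described above does not part them. The 43 bases in capitals at the end of mt-Atp8 also open mt-Atp6. The 3 capitals at the end of mt-Nd4l are the only bases of that gene absent from Gm10222. This nuclear pseudogene is identical over the other 294 bases.
mt-Atp8: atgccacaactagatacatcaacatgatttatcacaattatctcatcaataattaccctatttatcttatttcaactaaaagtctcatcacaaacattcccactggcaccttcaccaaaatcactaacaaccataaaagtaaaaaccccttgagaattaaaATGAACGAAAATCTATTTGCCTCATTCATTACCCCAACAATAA
mt-Nd4l: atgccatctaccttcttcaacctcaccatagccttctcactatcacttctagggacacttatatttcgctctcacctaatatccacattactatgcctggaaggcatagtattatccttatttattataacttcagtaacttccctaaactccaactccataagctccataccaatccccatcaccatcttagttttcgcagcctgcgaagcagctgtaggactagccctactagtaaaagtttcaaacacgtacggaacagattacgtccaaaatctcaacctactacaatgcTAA
The tRNA genes span 59 to 75 bases. The shortest, the longest and the only tRNA with any count are shown to give their size; no base is marked.
mt-Ts2: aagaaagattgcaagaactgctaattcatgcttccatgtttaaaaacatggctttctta
mt-Tl1: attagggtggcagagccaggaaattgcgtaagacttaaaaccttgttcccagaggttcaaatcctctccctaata
mt-Tv: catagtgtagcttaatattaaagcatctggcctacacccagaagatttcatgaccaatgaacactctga

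A search of the annotated pseudogenes found 17 with at least 90% identity to a mitochondrial gene over 100 bases or more, and 9 of them have rows in the files. Gm10222 was the only copy with 100 or more counts in a library. Its count equalled that of mt-Nd4l in 15 of 15 libraries, and RSEM, the counting program used by the authors, divides reads that fit more than 1 transcript between them. Each printed level of mt-Nd4l leaves out the counts given to Gm10222. The other 8 copies in the files reached at most 40 counts. The 8 copies without a row were not analysed here.

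Totals ran from 5781902 counts (SVC LFD A) to 23725647 (adipocyte HFD B). Markers of adipocytes summed to between 12576 and 53011 CPM (counts scaled to library size) in the adipocyte libraries and to between 679 and 1286 in the SVC libraries, so adipocyte markers separated the fractions. Macrophage markers (11 genes, none at 0) summed to 763 to 1253 CPM in LFD adipocytes, 8948 to 10369 in HFD and 6699 to 10138 in SW, while adipocyte markers (10 genes) were lowest in HFD, with 12576 to 21318 CPM against 34074 to 53011 in LFD. In SVCs macrophage markers summed to 8636 CPM in LFD and to 11174 to 21082 in HFD and SW. Endothelial markers were higher in SW adipocytes (572 to 772 CPM) than in SW SVCs (265 to 359). The adipocyte libraries of all diets thus also held RNA of other cells. Macrophage markers were higher in HFD and SW than in LFD, and endothelial markers summed to 1153 to 1494 CPM in LFD adipocytes. Erythroid markers summed to 2192 CPM in SVC HFD A and to 25529 to 52616 in the other SVC libraries. The 2 SVC HFD libraries differed far more from each other (chi-square per degree of freedom 407.7) than any other pair of 1 group (13.7 to 96.8), and among adipocytes SW A lay farthest from its group (87.0 and 96.8). In such bulk libraries, fewer cells of a type and less RNA per cell cannot be told apart.

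The mitochondrial genes took 8.40% to 13.8% of all counts in the adipocyte libraries. The share was 12.6%, 13.8% and 10.6% in the LFD libraries, 8.40%, 10.2% and 11.8% in HFD, and 9.83%, 10.9% and 9.45% in SW. The mean shares were 12.3% in LFD, 10.1% in HFD and 10.0% in SW, and the groups overlapped in every diet comparison. HFD lay 2.18 points below LFD, with a pooled SD of 1.65, and the difference of SW minus HFD was -0.0777 points, with a pooled SD of 1.31. SW and LFD overlapped too, although SW lay 2.26 points lower on average with a pooled SD of 1.24. The Wilson 95% intervals of single shares were 0.0194 to 0.0524 points wide, and cover counting error only, so the spread between libraries set the precision. An exact two-sided permutation test of 3 against 3 libraries cannot go below p = 0.1, and of 3 against 2 cannot go below 0.2, so shares are given without a test.

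In SVCs the share was lower in most libraries and far higher in 1. It was 4.36% in LFD, 6.34% and 33.5% in HFD, and 5.64%, 5.77% and 9.54% in SW. The HFD mean of 19.9% came from SVC HFD B: the difference of SW minus HFD was -12.9 points with both HFD libraries, -26.5 without SVC HFD A and 0.65 without SVC HFD B. Among the mice switched to low fat, SVC libraries averaged 3.06 points less than adipocyte libraries (6.98% against 10.0%), and the highest SVC library, 9.54%, lay above the lowest adipocyte library, 9.45%. In HFD mice the SVC mean lay 9.78 points above that of adipocytes with SVC HFD B and 3.79 points below it without. Leaving out the hemoglobin genes, which took 0.0614% to 0.322% of adipocyte counts and 0.287% to 5.15% of SVC counts, left each difference between groups within 1 pooled SD of the value above.

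**Figure D1:**
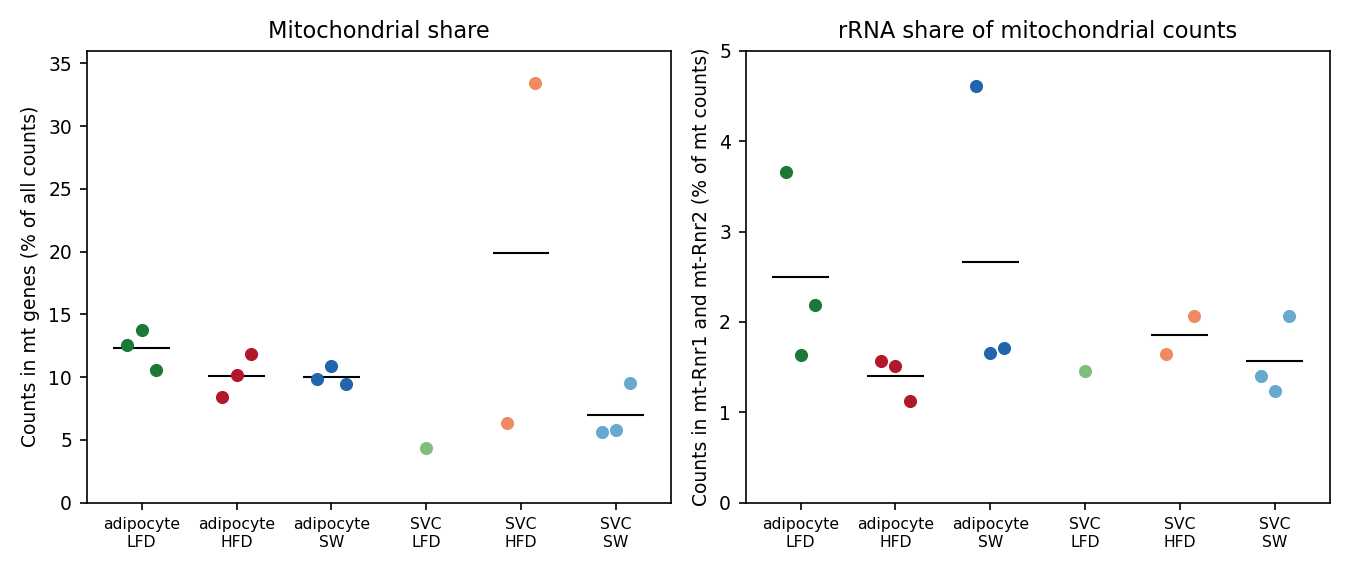
Share of all counts from the 37 mitochondrial genes (percent, left) and share of mitochondrial counts from the 2 rRNAs (percent, right), by fraction and diet. Points are libraries and bars are group means. The 9 adipocyte libraries lie between 8.40% and 13.8%, and SVC HFD B stands apart at 33.5%.

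Protein-coding transcripts made up nearly all mitochondrial counts, 95.4% to 98.9% in the 15 libraries. tRNAs were all but absent from these polyadenylated libraries: 1 count of 24376134 mitochondrial counts, for mt-Tv, the valine tRNA, in adipocyte LFD B. In the libraries without a tRNA count, a count of 0 allows a share of up to 5.03e-05% to 0.00119% of mitochondrial counts, depending on depth. None of the 22 tRNA genes passed the filter on low counts, and nothing can be said of their response to diet. The tests therefore cover 15 of the 37 members, the 13 protein-coding genes and the 2 rRNAs.

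rRNAs, the structural RNAs of the mitochondrial ribosome, took 1.13% to 4.61% of mitochondrial counts. The share was 3.66%, 1.64% and 2.18% in LFD adipocytes, 1.57%, 1.51% and 1.13% in HFD, and 4.61%, 1.66% and 1.71% in SW. Every HFD library lay below every LFD and SW library, by 1.09 points on average from LFD and 1.26 points from SW, and the largest values came from LFD A and SW A. Without LFD A the HFD-LFD difference was -0.51 points, and without SW A the SW-HFD difference was 0.28 points. In SVCs the share was 1.45% in LFD, 1.65% and 2.07% in HFD, and 1.40%, 1.24% and 2.07% in SW, so the diets overlapped. Polyadenylated RNA was sequenced, so these values describe the rRNA that was captured, not the ribosome content.

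Per length of transcript, in CPM per kilobase (scaled by library totals), the levels of the genes in adipocytes spanned more than an order of magnitude, and the same 4 led in all 9 libraries: mt-Co1, mt-Co2 and mt-Co3, the catalytic core of complex IV (cytochrome c oxidase), and mt-Atp6. mt-Co2 ranked highest in the LFD and SW libraries, with 25494 ± 4633 (SD, n = 3) in LFD and 20558 ± 3062 in SW, and mt-Co1 ranked highest in the HFD libraries, with 18297 ± 3271 beside 17328 ± 2715 for mt-Co2. The group ranges of mt-Co1 and mt-Co2 overlapped in HFD and SW. They did not in LFD, where mt-Co1 ran from 16649 to 21559 and mt-Co2 from 22429 to 30824. mt-Cytb, a heme-carrying subunit of complex III, followed in the 5th place in 8 of 9 libraries. The complex I genes mt-Nd1, mt-Nd2 and mt-Nd4 held the middle, with group means between 4766 and 7320, and their neighbouring ranks overlapped. mt-Nd3 held the middle in LFD (8708 ± 2152) and ranked 10th in all HFD libraries (4447 ± 471). mt-Nd6 (2156 to 4700 in group means), mt-Atp8 (3023 to 6376) and mt-Nd5 (1195 to 2116) came lower in most libraries. Both rRNAs and mt-Nd4l had the lowest group means, between 423 and 1303, except that in SW A both rRNAs ranked above mt-Atp8 and mt-Nd5. The level of mt-Nd4l leaves out the counts given to Gm10222, which equalled its own, so its place is a lower bound.

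**Figure D2:**
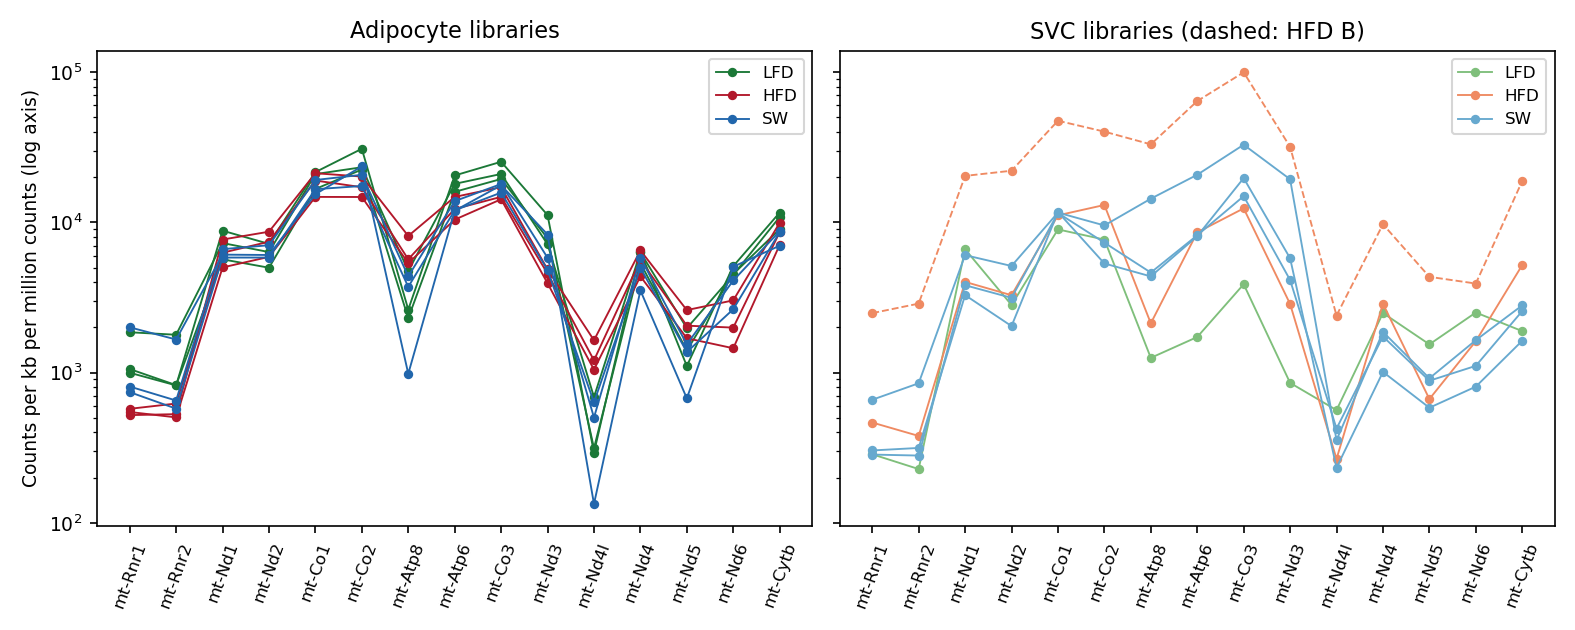
Level of the 13 protein-coding and 2 rRNA genes in CPM per kilobase of transcript (vertical log axis), in genome order, with 1 line per library coloured by diet, adipocytes on the left and SVCs on the right. The complex IV genes mt-Co1, mt-Co2 and mt-Co3 and the complex V gene mt-Atp6 lie at the top in adipocytes. mt-Nd4l, drawn without the counts given to Gm10222, lies near the bottom. SVC HFD B (dashed) lies above the other SVC libraries.

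Between HFD and LFD adipocytes, 4 of the 15 tested mitochondrial genes passed the test (edgeR's quasi-likelihood test, adjusted p under 0.05 over all 14461 genes), 3 lower and 1 higher, where 51.5% of all genes tested passed (26.5% higher and 25% lower). The 4 were mt-Rnr1, mt-Nd3 and mt-Nd6, which fell, and mt-Nd4l, which rose. The share of members called was thus below that of all genes. Groups did not overlap for 9 of the 15 (2 higher and 7 lower), against 62.7% of all genes (32.1% higher and 30.5% lower), and the median log2 change of the protein-coding members was -0.23, against -0.03 over all genes.

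Of the complex I genes, mt-Nd6, the light-strand gene, was at 2258, 2696 and 2326 CPM in LFD and at 692, 1024 and 1555 CPM in HFD. Every HFD library was below every LFD library, and the log2 change was -1.15 ± 0.34 (SE; adjusted p = 0.0180). mt-Nd3, which encodes a small core subunit, was at 2421, 3951 and 2695 CPM in LFD against 1256, 1572 and 1673 CPM in HFD, with no overlap and a log2 change of -1.01 ± 0.30 (adjusted p = 0.0175). mt-Nd4l, also a small core subunit, moved the other way, from 199, 88.7 and 92.3 CPM in LFD to 285, 355 and 483 CPM in HFD, a log2 change of 1.57 ± 0.47 (adjusted p = 0.0183). The remaining complex I genes did not pass and their groups overlapped, with log2 changes of -0.23 (mt-Nd1), 0.21 (mt-Nd2), -0.16 (mt-Nd4) and 0.48 (mt-Nd5).

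mt-Rnr1, the rRNA of the small ribosomal subunit, was at 1725, 969 and 998 CPM in LFD and at 480, 543 and 493 CPM in HFD. The groups did not overlap and the log2 change was -1.28 ± 0.43 (adjusted p = 0.0295). mt-Rnr2, the rRNA of the large subunit, was at 2751, 1323 and 1292 CPM in LFD and at 731, 975 and 829 CPM in HFD, also without overlap, but did not pass (log2 change -1.08 ± 0.47, adjusted p = 0.0798). LFD A was the highest library for both rRNAs.

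No gene of complexes III, IV or V passed. In complex IV the log2 changes were -0.14 (mt-Co1), -0.60 (mt-Co2, adjusted p = 0.0836) and -0.55 (mt-Co3, adjusted p = 0.0601), and mt-Cytb of complex III was at -0.33. Groups did not overlap for mt-Co2 and mt-Co3. The complex V pair had opposite signs, both without overlap: -0.58 for mt-Atp6 (adjusted p = 0.0513) and 0.96 for mt-Atp8 (adjusted p = 0.0926). Several of these values sat near the threshold, and the number called was 8 with DESeq2 (2 higher, 6 lower, mt-Atp6, mt-Atp8, mt-Co2 and mt-Co3 added) and 7 with library totals as the only scaling (1 higher, 6 lower). Leaving out 1 library left 1 call without LFD B (mt-Rnr1), 1 without HFD A (mt-Nd4l) and 2 without HFD B (mt-Nd3 and mt-Nd4l). Markers of several cell types differed with diet in the same libraries. Besides the adipocyte and macrophage markers above, 3 other sums did not overlap between LFD and HFD: fibroblast and progenitor markers (7 genes) summed to 1632 to 2524 CPM in LFD and 5404 to 7414 in HFD, erythroid markers (5 genes) to 2133 to 3206 and 612 to 761, and mesothelial markers (5 genes) to 62.7 to 96.1 and 10.8 to 30.8. Endothelial markers (6 genes) overlapped, at 1153 to 1494 and 619 to 1204. The part of these in the differences was not tested.

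Between SW and HFD adipocytes, 3 of 15 passed, against 31.4% of all genes tested (15.6% higher and 15.9% lower): mt-Rnr1 and mt-Nd6 were higher in SW and mt-Nd4l lower. Both diet comparisons used the same 3 HFD libraries, so their opposite signs are not independent. mt-Rnr1 stood at 2273, 754 and 695 CPM in SW, all above the HFD values, with a log2 change of 1.30 ± 0.43 (adjusted p = 0.0436). mt-Nd6 stood at 3127, 2080 and 1345 CPM, overlapping HFD through SW C, with a log2 change of 1.00 ± 0.34 (adjusted p = 0.0488). mt-Nd4l stood at 47.2, 146 and 185 CPM, all below HFD, with a log2 change of -1.57 ± 0.47 (adjusted p = 0.0307).

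SW A held the extreme value in each of these 3 genes. Without it only mt-Nd4l passed. The count was 0 without HFD A and 1 without HFD B (mt-Nd4l), HFD C (mt-Nd6) or SW B (mt-Rnr1), so no call of this comparison held in every subset. Groups did not overlap for 4 of 15 genes (1 higher and 3 lower), against 48.6% of all genes (23.3% higher and 25.2% lower); the other two were mt-Atp8 (log2 change -1.03, adjusted p = 0.0967) and mt-Nd5 (-0.75, adjusted p = 0.0782). The remaining genes, none of which passed, were at 0.99 (mt-Rnr2), 0.65 (mt-Nd3), 0.37 (mt-Co2), 0.27 (mt-Co3), 0.12 (mt-Atp6), 0.08 (mt-Nd1), 0.02 (mt-Cytb), 0.00 (mt-Co1), -0.11 (mt-Nd2) and -0.12 (mt-Nd4).

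Between SW and LFD adipocytes no mitochondrial gene passed edgeR's test, where 17.1% of all genes tested did (10.9% higher and 6.18% lower). None had an unadjusted p under 0.05, and DESeq2 and limma-voom also called 0. The log2 changes ran from -0.46 (mt-Atp6) to 0.10 (mt-Nd2), with SEs of 0.22 and 0.24, and the rRNAs were at 0.01 (mt-Rnr1) and -0.09 (mt-Rnr2). mt-Atp6 and mt-Cytb (-0.31) were lower in SW without overlap, 2 of 15 genes against 36.7% of all genes (19.1% higher and 17.5% lower). The SEs of mt-Nd4l (0.46), mt-Rnr1 (0.42) and mt-Rnr2 (0.47) leave room for sizeable differences in either direction, so a missed threshold does not show that SW adipocytes had returned to LFD levels.

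**Figure D3:**
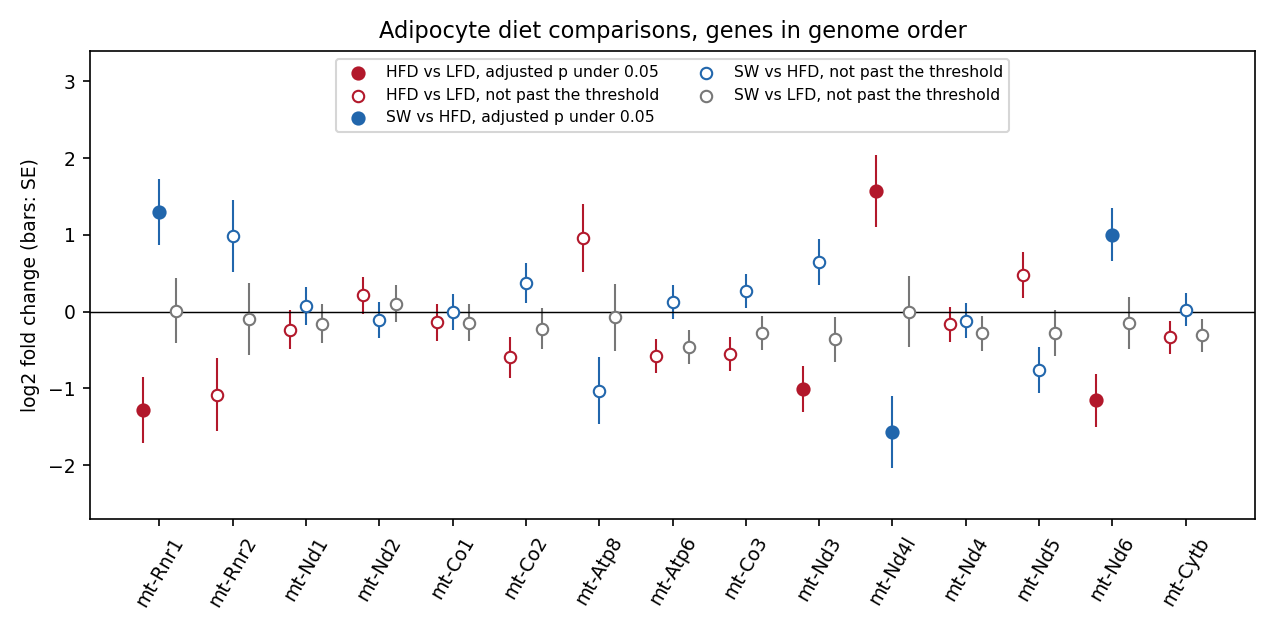
Log2 fold change of the 15 tested mitochondrial genes in the 3 diet comparisons of adipocytes, with bars of 1 standard error and filled points where the adjusted p was under 0.05. In adipocytes mt-Rnr1 and mt-Nd6 lie below 0 for HFD against LFD and above 0 for SW against HFD, and mt-Nd4l lies the other way round.

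The genes that share bases with a neighbour were compared by the ratio of their levels per kilobase within a library, which needs no scaling between libraries. No tRNA gene parts mt-Atp8 from mt-Atp6 or mt-Nd4l from mt-Nd4, so these ratios do not show that separate RNAs differed. mt-Atp8 (204 bases) and mt-Nd4l (297 bases) are short, and the part of fragment length in their ratios was not tested. mt-Atp8 stood at 0.263, 0.128 and 0.144 of mt-Atp6 in LFD, 0.514, 0.463 and 0.550 in HFD, and 0.082, 0.316 and 0.310 in SW. mt-Nd4l stood at 0.109, 0.046 and 0.059 of mt-Nd4 in LFD, 0.239, 0.215 and 0.253 in HFD, and 0.038, 0.087 and 0.127 in SW. For both pairs the 3 HFD libraries lay above all LFD and SW libraries. With the counts of Gm10222 added to mt-Nd4l, the mean ratio was 0.142 in LFD, 0.471 in HFD and 0.168 in SW, in place of 0.071, 0.236 and 0.084.

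For the pair on opposite strands the order was reversed. mt-Nd6 stood at 2.26, 4.62 and 3.23 times mt-Nd5 in LFD, 0.858, 0.971 and 1.16 times in HFD, and 7.515, 2.66 and 1.93 times in SW, so the 3 HFD libraries were the lowest. Whether the counting used strand is not given in the sources used here, and without strand, reads from mt-Nd6 and from the opposite strand of its locus cannot be told apart. The ratio of the rRNAs, mt-Rnr2 to mt-Rnr1, was 0.856 ± 0.095 in LFD, 1.007 ± 0.082 in HFD and 0.804 ± 0.027 in SW (SD, n = 3). HFD lay above SW without overlap and overlapped LFD. The labels list single-end and paired-end records that cannot be tied to the columns, and the part of read layout in these ratios was not tested.

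**Figure D4:**
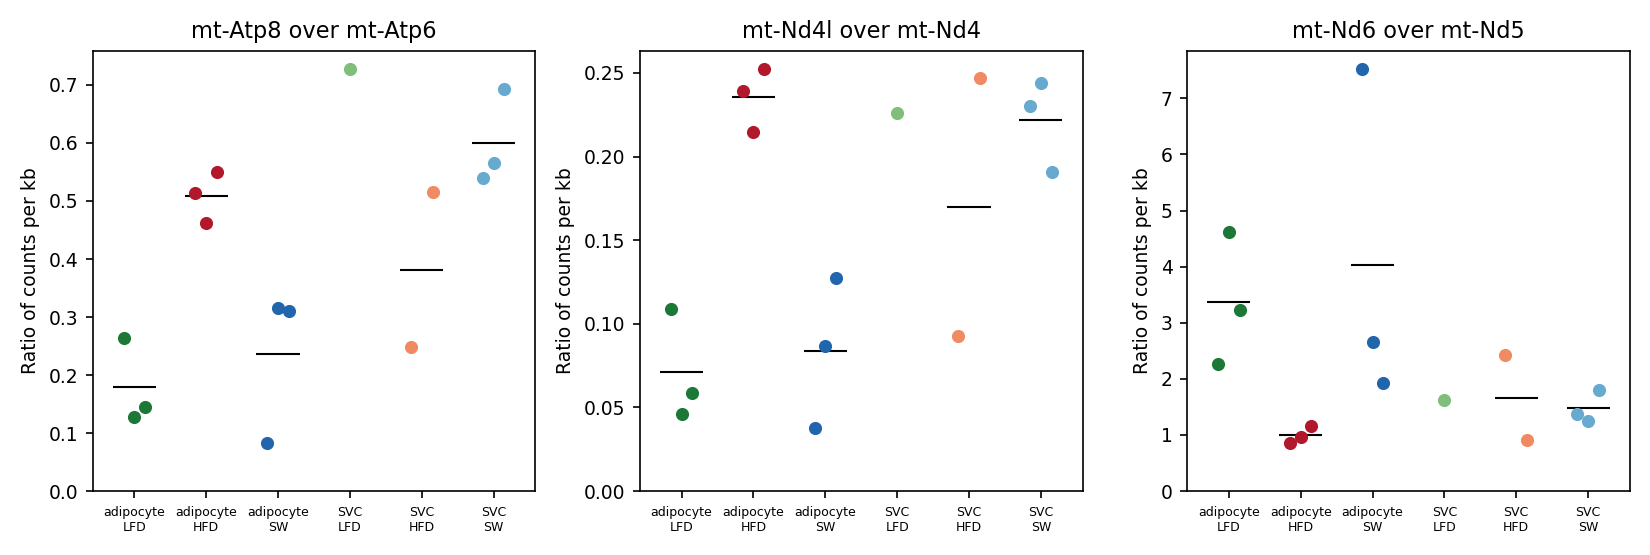
Ratios of levels per kilobase between pairs of mitochondrial genes (vertical axis, linear), 1 point per library by fraction and diet, with bars at the group means. For mt-Atp8 to mt-Atp6 and mt-Nd4l to mt-Nd4 the HFD adipocyte libraries lie above the LFD and SW ones, and for mt-Nd6 to mt-Nd5 they lie below.

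Most nuclear-encoded subunits of the same complexes passed the test in HFD against LFD adipocytes. Among all genes tested, 51.5% passed (26.5% higher and 25% lower). In HFD against LFD adipocytes, 33 of 37 tested nuclear genes of complex I were lower and none higher, with a median log2 change of -0.98. In complex III 7 of 9 were lower (median -0.70), in complex IV 11 of 14 (median -0.91) and in complex V 8 of 14 (median -0.53). The only subunit that was higher was Cox6a2, a muscle-type subunit of complex IV, at a mean of 0.267 CPM in LFD and 1.49 CPM in HFD; it was named after its values were seen. Of the proteins of the mitochondrial ribosome, 44 of 76 were lower and 2 higher (Mrpl19 and Mrpl3, also named after their values were seen), with a median of -0.49. Called genes were 89.2% of complex I, 77.8% of complex III, 85.7% of complex IV, 57.1% of complex V and 60.5% of the ribosomal proteins. Complex V and the ribosomal proteins were closest to the 51.5% of all genes. With 1 library left out, complex I had 28 to 33 lower, complex III 5 to 7 and complex IV 9 to 11. Complex V had 3 lower, and the ribosomal proteins 23 to 28, without HFD A, HFD C, LFD B or LFD C. Cox6a2 passed only without LFD B among these fits, and Mrpl3 did not pass without LFD B or HFD C.

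In SW against HFD the same lists were higher: 32 of 37 in complex I (median 0.92), 5 of 9 in complex III (0.77), 10 of 14 in complex IV (0.95), 10 of 14 in complex V (0.68) and 37 of 76 ribosomal proteins (0.52). Of all genes tested, 31.4% passed (15.6% higher and 15.9% lower). The median over all genes was 0.01 and that of the mitochondrial protein-coding genes 0.02. These counts depended on single libraries. Complex I had 8 higher without HFD A and 6 without HFD C, complexes III and V had 0 without either of these, complex IV had 3 and 2, and the ribosomal proteins 11 and 6. Without SW A, complex V had 3 and the ribosomal proteins 22, and the medians were 0.65, 0.47, 0.67, 0.42 and 0.36 in the order of the lists above. In SW against LFD none of the genes of these 5 lists passed, and at most 1 of a list did with a library left out.

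As a share of all counts the nuclear subunits took 1.40%, 1.61% and 1.89% in LFD adipocytes, 0.917%, 1.16% and 0.971% in HFD, and 1.64%, 1.36% and 1.45% in SW, with the 3 HFD libraries lowest. The ratio of mitochondrial to nuclear subunit counts was 8.68, 8.42 and 5.48 in LFD, 9.02, 8.62 and 12.0 in HFD, and 5.70, 7.84 and 6.40 in SW. HFD overlapped LFD for this ratio and lay above SW without overlap. Adipocyte markers were lowest in the same HFD libraries, and their part in the fall of the nuclear subunits was not tested.

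**Figure D5:**
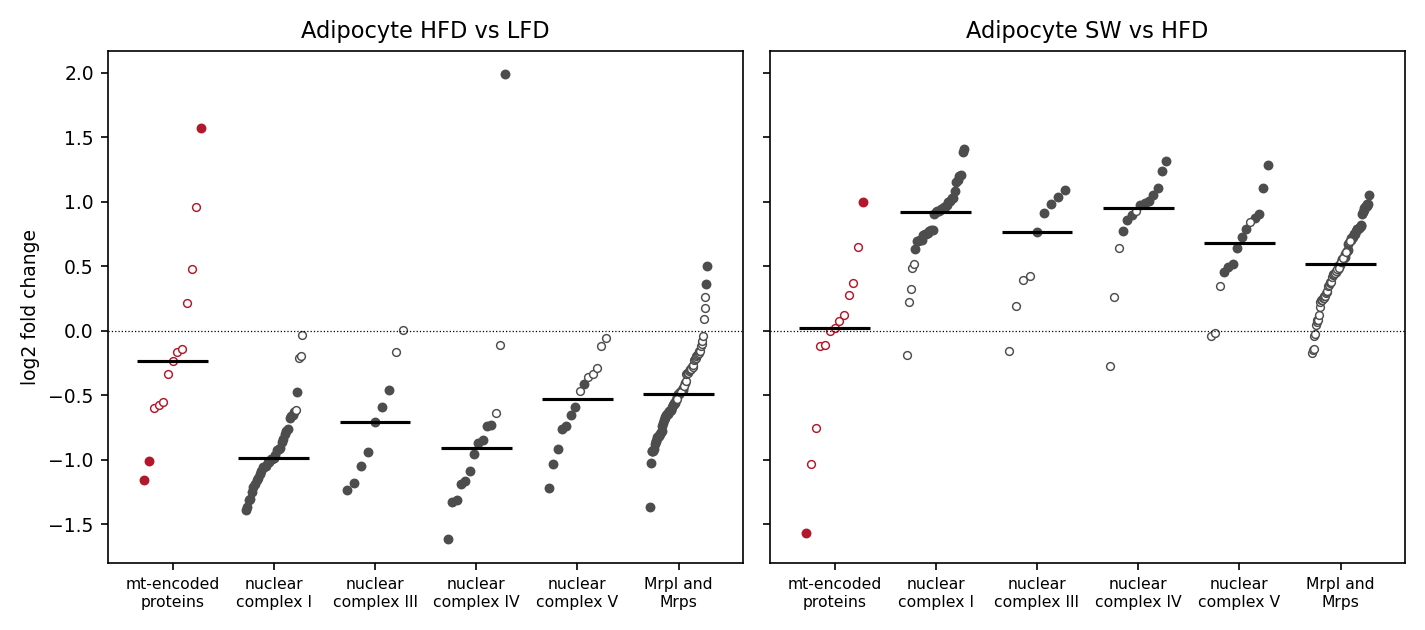
Log2 fold change of the 13 mitochondrial protein-coding genes (red), nuclear-encoded subunits and mitochondrial ribosomal proteins (Mrpl and Mrps) in adipocytes, 1 point per gene, sorted within each list, filled where the adjusted p was under 0.05, with a bar at the median. In HFD against LFD the median is -0.98 for nuclear complex I and -0.23 for the mitochondrial protein-coding genes.

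Of the genes that transcribe, process and degrade mitochondrial RNA, 14 of 44 were lower and 4 higher in HFD against LFD adipocytes. That is 40.9% called, against 51.5% of all genes, with a median log2 change of -0.06. With 1 library left out the counts were 7 to 13 lower and 2 to 6 higher, with 7 or 8 lower without HFD A, HFD C, LFD B or LFD C and 2 higher without LFD B or LFD C. Tfam, which packages mitochondrial DNA and opens its promoters, was at 29.7, 31.2 and 35.3 CPM in LFD and at 25.8, 25.9 and 25.9 CPM in HFD, a fall of small size (log2 change -0.31 ± 0.11, adjusted p = 0.0334). Tfb2m, its partner in initiation, was also lower (-0.35, adjusted p = 0.0408), and Polrmt, the mitochondrial RNA polymerase, did not pass (-0.17, adjusted p = 0.293). With 1 library left out, Tfam passed in 1 of 6 fits (without LFD A) and Tfb2m in 0 of 6.

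The transcripts of Slirp and Lrpprc, whose proteins form a complex stabilising mitochondrial messenger RNAs, went in opposite directions. Slirp was at 49.8, 62.7 and 64.9 CPM in LFD, 29.8, 41.9 and 35.2 CPM in HFD, and 102, 64.2 and 56.2 CPM in SW; it fell in HFD (-0.73, adjusted p = 0.0200) and was higher in SW than in HFD (1.05, adjusted p = 0.0098). Lrpprc was at 37.7, 34.2 and 36.9 CPM in LFD, 41.9, 46.9 and 46.9 CPM in HFD, and 31.4, 33.6 and 34.6 CPM in SW; it rose in HFD (0.32, adjusted p = 0.0227) and was lower in SW than in HFD (-0.45, adjusted p = 0.0119). Against LFD, Slirp passed in 2 of 6 fits with 1 library left out (without LFD A or HFD B) and Lrpprc in 3 of 6 (not without LFD B, LFD C or HFD C), and against SW, Slirp passed in 6 of 6 and Lrpprc in 5 of 6 (not without HFD C). Ppargc1a, a coactivator known to drive mitochondrial biogenesis, did not pass in HFD against LFD (-0.02) or in SW against HFD (-0.03).

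The largest rises in HFD were Fastkd2 (0.59), which acts on mitochondrial RNA, Gabpa (0.56), a nuclear transcription factor for mitochondrial genes, and Pnpt1 (0.43), a subunit of the RNA degradation complex. The largest falls were Gm9897 (-1.44) and Mterf (-1.23), the file's symbols for Mterf1b and Mterf1a, and Top1mt (-0.89), the mitochondrial DNA topoisomerase. Mterf1a and Mterf1b are near-identical copies of a transcription termination factor, and the division of reads between them is uncertain. With 1 library left out, Fastkd2, Gm9897, Mterf and Top1mt passed in 6 of 6 fits, Gabpa in 5 of 6 (not without LFD C) and Pnpt1 in 3 of 6 (not without LFD B, HFD A or HFD B). In SW against HFD 8 were higher and 2 lower, 22.7% against 31.4% of all genes, with 1 higher without HFD C, 4 without HFD A and 5 without SW A: next to Slirp, Polg2 (0.78), the accessory subunit of the DNA polymerase, and Mterfd2 (0.57; now Mterf4) were the largest rises, Gabpa (-0.49) and Lrpprc were the falls, and Tfam (0.19), Tfb2m (0.08) and Polrmt (0.01) did not pass. Polg2 and Mterfd2 did not pass without HFD C, and Gabpa passed in 2 of 6 fits (not without HFD A, HFD C, SW A or SW C). In SW against LFD none of the 44 passed, and at most 1 did with a library left out.

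In SVCs only SW and HFD could be compared, since LFD had 1 library. No mitochondrial gene passed edgeR's test, where 17.5% of all genes did (5.71% higher and 11.7% lower), although 3 had an unadjusted p under 0.05; DESeq2 called 4, all lower in SW (mt-Co2, mt-Cytb, mt-Nd4 and mt-Nd5), and limma-voom 0. All 15 log2 changes were negative, from -2.50 (mt-Cytb, adjusted p = 0.0581) to -0.98 (mt-Nd3), with SEs of 0.62 to 1.19. The HFD libraries differed too much for a firmer statement: mt-Cytb was at 4515 CPM in SVC HFD A, 26464 CPM in SVC HFD B and 1950, 2695 and 3553 CPM in SW.

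mt-Cytb and mt-Nd4 (-2.16) were the only 2 genes whose groups did not overlap, against 58.6% of all genes (28.5% higher and 30% lower). For mt-Co3 all SW libraries lay between the HFD libraries: it was at 7371 CPM in SVC HFD A and 95807 CPM in SVC HFD B, beside 16142, 10728 and 28514 CPM in SW. mt-Rnr1 was at 338 and 2918 CPM in HFD, and SW, at 303, 249 and 698 CPM, lay on both sides of SVC HFD A. Without SVC HFD A, 6 genes passed, all lower in SW (mt-Co1, mt-Co2, mt-Cytb, mt-Nd4, mt-Nd4l and mt-Nd5), and without SVC HFD B none did; each of these fits has a lone HFD library that is assumed to vary like the others. SVC HFD A also had the lowest erythroid marker sum of the SVC libraries, and its part in the difference was not tested. The remaining log2 changes were -1.96 (mt-Rnr1), -1.91 (mt-Rnr2), -1.63 (mt-Nd1), -2.05 (mt-Nd2), -2.20 (mt-Nd4l), -1.84 (mt-Nd5), -1.30 (mt-Nd6), -1.49 (mt-Co1), -1.96 (mt-Co2), -1.48 (mt-Co3), -1.71 (mt-Atp6) and -1.36 (mt-Atp8).

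The nuclear partners had other medians in SVCs. They were 0.23 for complex I, with 3 of 37 lower (Ndufs1, Ndufs4 and Ndufa5, named after their values were seen), 0.17 for complex III, 0.05 for complex IV, 0.30 for complex V and 0.23 for the ribosomal proteins, beside -1.71 for the mitochondrial protein-coding genes and 0.03 over all genes. Without SVC HFD B the medians of these 5 lists were 0.75, 0.58, 0.41, 0.74 and 0.50, and without SVC HFD A 0.02, -0.04, 0.06, 0.14 and 0.01. Of the RNA machinery 11 of 44 were lower in SW and none higher, with a median of -0.76. Called genes were 8.11% of complex I and 25% of the machinery, where 17.5% of all genes tested passed (5.71% higher and 11.7% lower). Without SVC HFD A, SVC SW A, SVC SW B or SVC SW C none of the nuclear genes of these lists passed, and without SVC SW A or SVC SW B no gene of all tested did. Without SVC HFD B, 15 of the machinery were lower and 4 higher, and 10 complex I genes and 15 ribosomal proteins were higher. Slirp (-1.07), Lrpprc (-2.24), Tfb2m (-1.89), Gabpa (-2.13) and Ssbp1 (-2.25), the single-stranded DNA binding protein of mitochondria, were among the 11, and Tfam (-1.13, adjusted p = 0.0529), Polrmt (0.76) and Ppargc1a (-0.81) did not pass.

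Some ratios between mitochondrial genes differed between the fractions in SW mice, as given further on, but the other SVC libraries varied. Between SVCs and adipocytes of SW mice, 3 of 15 mitochondrial genes passed, all lower in SVCs, where 68.4% of all genes tested passed (35.6% higher and 32.8% lower). mt-Cytb was at 2291, 3296 and 4238 CPM in SVCs and at 8467, 8714 and 8675 CPM in adipocytes on the scale of the joint fit, a log2 change of -1.40 ± 0.49 (adjusted p = 0.0211). mt-Nd6 was at 514, 645 and 1128 CPM against 2786, 1857 and 1208 CPM (-1.36 ± 0.49, adjusted p = 0.0257), and mt-Nd4 at 1711, 2687 and 3399 CPM against 5137, 6975 and 6052 CPM (-1.22 ± 0.48, adjusted p = 0.0374). All 3 genes were lower in every SVC library.

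mt-Co2 (-1.09, adjusted p = 0.0579) was also lower without overlap, and mt-Atp8 (1.86, adjusted p = 0.0764) was higher without overlap, so 5 of 15 genes did not overlap, against 70.8% of all genes (35.8% higher and 35% lower). The remaining log2 differences were -1.15 (mt-Rnr1), -0.64 (mt-Rnr2), -0.09 (mt-Nd1), -0.47 (mt-Nd2), 1.04 (mt-Nd3), 0.11 (mt-Nd4l), -0.16 (mt-Nd5), -0.16 (mt-Co1), 0.80 (mt-Co3) and 0.40 (mt-Atp6). The number called was 0 without SVC SW A, 1 without SVC SW B (mt-Cytb) and 5 without SVC SW C (mt-Co2 and mt-Rnr1 added). With library totals as the only scaling it was 5, and the median over all genes then moved from 0.09 to -0.29.

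Within the mitochondrial RNA, mt-Cytb took 8.13% to 10.4% in the adipocyte libraries and 3.30%, 5.09% and 3.36% in the SW SVC libraries. Per kilobase, mt-Co3 stood at 1.72 to 2.52 times mt-Cytb in adipocytes and at 12.1, 5.81 and 11.7 times in SW SVCs, where it was the highest gene of each library. mt-Co1 stood at 1.85 to 2.20 times mt-Cytb in adipocytes and at 7.18, 4.49 and 4.14 times in SW SVCs. The other SVC libraries did not share 1 pattern: SVC LFD A was at 2.05 for mt-Co3 and 4.75 for mt-Co1, SVC HFD A at 2.38 and 2.14, inside or near the adipocyte ranges, and SVC HFD B at 5.28 and 2.52. For the overlapping pair, mt-Atp8 stood at 0.540, 0.565 and 0.693 of mt-Atp6 in SW SVCs, above the 0.082 to 0.316 of SW adipocytes.

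Among the nuclear partners, 18 of 37 complex I genes, 7 of 9 complex III genes, 11 of 14 complex IV genes, 4 of 14 complex V genes and 28 of 76 ribosomal proteins were lower in SW SVCs than in SW adipocytes; 1 complex III gene and 2 ribosomal proteins were higher. Called genes were thus 48.6% of complex I, 88.9% of complex III, 78.6% of complex IV, 28.6% of complex V and 39.5% of the ribosomal proteins, where 68.4% of all genes were called and 32.8% were lower. Complexes I and V and the ribosomal proteins were below the share called among all genes. Without SVC SW C, 8 complex V genes were lower. Of the RNA machinery 27 of 44 were lower and 8 higher, 79.5% called. Tfam (-1.62), Tfb2m (-2.97), Slirp (-2.09), Lrpprc (-2.63) and Ppargc1a (-2.34) were lower in SVCs, and Polrmt was higher (1.71), as were Pprc1 (1.29), a coactivator related to Ppargc1a, and Tbrg4 (1.25), which acts on mitochondrial messenger RNA. Gm9897 (-3.16) and Mterfd3 (-3.10; now Mterf2) had the largest falls.

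An interaction in the joint fit tested whether SVCs and adipocytes differed in their response to the switch, SW against HFD. Of the 15 genes 4 passed, where 27.1% of all genes did (11.4% higher and 15.7% lower), and for all 4 the change was more negative in SVCs: mt-Rnr1 (-3.22 ± 0.99, adjusted p = 0.0288), mt-Cytb (-2.47 ± 0.71, adjusted p = 0.0219), mt-Co2 (-2.28 ± 0.71, adjusted p = 0.0310) and mt-Nd6 (-2.24 ± 0.72, adjusted p = 0.0354). The other 11 differences were negative too, from -2.85 (mt-Rnr2) to -0.29 (mt-Atp8), among them mt-Nd4 (-1.99, adjusted p = 0.0529), mt-Nd2 (-1.90), mt-Atp6 (-1.80), mt-Co3 (-1.72), mt-Nd1 (-1.66), mt-Nd3 (-1.60), mt-Co1 (-1.44), mt-Nd5 (-1.05) and mt-Nd4l (-0.59).

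These differences rested on the 2 SVC HFD libraries. Without SVC HFD A, 12 genes passed, all with the negative sign. Without SVC HFD B, 3 other genes passed with the positive sign (mt-Atp8 at 3.46, mt-Nd4l at 2.42 and mt-Nd5 at 1.53). The count was 0 without adipocyte HFD A and 1 without adipocyte HFD B, adipocyte SW A or SVC SW A (mt-Cytb each time). It was 2 without adipocyte SW B (mt-Cytb and mt-Rnr1) or SVC SW B (mt-Co2 and mt-Cytb), and limma-voom called 0. Of the machinery, Tfam (-1.19), Tfb2m (-1.82), Slirp (-2.04) and Lrpprc (-1.62) also passed, Lrpprc not without SVC HFD A, and Polrmt (0.83, adjusted p = 0.0639) and Ppargc1a (-0.64) did not.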

How the data were processed

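Gene counts came from 15 libraries, 9 of adipocytes and 6 of SVCs, each from polyadenylated RNA. The deposited values are estimated counts per gene, whole and not normalized, made by the authors with Bowtie2 and RSEM, whose versions are not given in the sources used here; mm9 is named in the submitters' processing notes. The labels hold 26 sample records for 18 libraries. Another 3 columns, whose names matched no label, were not used. Whether single-end and paired-end runs were added up is not given in the sources used here. Groups were taken from the diet in the treatment labels, and columns were matched to groups by fraction and diet in their names. Totals of 5781902 to 23725647 counts left counting error far below the spread between libraries.

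Each fraction was fitted alone with edgeR 4.0.16 (R 4.3.3): genes kept by filterByExpr with a minimum count of 10, TMM scaling, the robust quasi-likelihood test, Benjamini-Hochberg adjustment over all genes tested and a threshold of 0.05. A joint fit of both fractions gave the comparison of SVCs with adipocytes and the interaction. CPM values are TMM-scaled, and levels per kilobase use GENCODE M21 transcript lengths with library totals. Sequences were read from GENCODE M21 transcripts by identifier, and nuclear copies were found with BLAST 2.17.0. The scripts were tested on simulated data.

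The members and the gene lists were chosen with earlier results of these data known. All 37 mitochondrial genes were accounted for and the 15 tested were named. Of 44 genes of mitochondrial transcription and RNA turnover, Polrmt, Tfam, Tfb2m, Lrpprc, Slirp and Ppargc1a were always named, with the 3 largest rises and the 3 largest falls among those past the threshold without overlap between groups. Nuclear subunits and ribosomal proteins were given by counts and medians. Alternatives were DESeq2 1.42.0, limma-voom (limma 3.58.1), other scalings and filters, thinning to the smallest library, leaving out genes, and leaving out each library. Adding Gm10222 to mt-Nd4l, and leaving out each library for the nuclear lists and genes, were chosen after seeing the data.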

Additional observations from a re-analysis of the deposited data

Results flagged for a closer look

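For 4 of the 15 mitochondrial genes tested (26.7%), the change of SW against HFD passed as different between SVCs and adipocytes. The test was the interaction term of the joint edgeR fit, where 27.1% of all genes tested passed. The count fell to 0 with limma-voom and with adipocyte HFD A left out. The difference on the log2 scale, SVCs minus adipocytes, was -3.22 for mt-Rnr1, -2.28 for mt-Co2, -2.24 for mt-Nd6 and -2.47 for mt-Cytb. For each gene the SVC change rests on 2 HFD libraries with very different mitochondrial shares, 6.34% and 33.5% of counts, and on 3 SW libraries. Without SVC HFD B none of these 4 passed, and without SVC HFD A all 4 passed.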

How the results depend on the processing

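No paired analysis was possible because the library numbers in the columns are in no label and no label ties a library of 1 group to a library of another. Of 226 recomputed summary values, 191 stayed within 1.5 times or within the spread between libraries, and 35 moved. The 191 include every tRNA share difference, which had almost no room to move with 1 tRNA count in all. The number called in SW against HFD adipocytes stayed so in 1 of 6 fits with 1 library left out. Of 1500 values for single genes, 1310 kept their call and direction, or moved by less than the spread. Genes called in neither fit count among the 1310. Another 67 lost their call, 54 gained a call, 66 moved in other ways and 3 reversed. The number of mitochondrial genes called for HFD against LFD adipocytes (4) was 8 with DESeq2, 7 with upper-quartile factors, 7 with library totals only and 2 with no filter, and ran from 1 to 4 with 1 library left out. For SW against HFD adipocytes (3) it was 0 with no filter and 0 to 3 with 1 library left out, and for SW against LFD it was 0 throughout. For SW against HFD in SVCs (0) it was 4 with DESeq2, 1 with no filter, 1 with at least 10 counts in every library and 1 with thinned counts (mt-Cytb each time), and 0 to 6 with 1 library left out. For SVCs against adipocytes (3) it was 5 with library totals only and 0 to 5 with 1 library left out. For the interaction (4) it was 0 with limma-voom, 2 with no filter and 0 to 12 with 1 library left out. Without SVC HFD B, 3 interaction values reversed: with 1 library left out, mt-Atp8 ran from -1.24 to 3.46, mt-Nd5 from -1.93 to 1.53 and mt-Nd4l from -1.50 to 2.42. The difference in mitochondrial share, SW minus HFD in SVCs, ran from -26.5 to 0.647 with 1 library left out, and SVC minus adipocyte in HFD mice from -3.79 to 23.3. Upper-quartile factors moved the all-gene median for HFD against LFD to -0.12. The causes were not tested. Depth bounds the tRNA shares only to the limits that a count of 0 allows.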

Other observations

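In SVCs the ratios that stood apart in HFD adipocytes had no common order by diet. mt-Nd4l stood at 0.226 of mt-Nd4 per kilobase in LFD, 0.093 and 0.247 in HFD, and 0.230, 0.244 and 0.190 in SW. mt-Nd6 stood at 1.63 times mt-Nd5 in LFD, 2.43 and 0.902 times in HFD, and 1.38, 1.26 and 1.79 times in SW. mt-Atp8 stood at 0.727 of mt-Atp6 in LFD, 0.248 and 0.515 in HFD, and 0.540, 0.565 and 0.693 in SW. For this pair alone the HFD libraries lay apart from the others, below them, the reverse of adipocytes.

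The ratio of mitochondrial to nuclear subunit counts in SVCs was 7.63 in LFD, 8.98 and 47.5 in HFD, and 6.58, 7.76 and 10.7 in SW. The value of 47.5 belongs to SVC HFD B. Nuclear subunits took 0.563% to 0.875% of all SVC counts and 0.690% in SVC HFD B, which as a share stood apart only in its mitochondrial counts. A high mitochondrial share lowers the share of every nuclear gene, so the levels of the nuclear subunits are not compared by this.

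The only SVC LFD library had the lowest mitochondrial share of the 15 libraries, 4.36%. Its mt-Co3 was at 3063 CPM, below the other 5 SVC libraries (7371 to 95807 CPM), as was its mt-Atp6, at 1186 CPM against 4432 to 53575 CPM. Its mt-Nd1, at 6391 CPM, lay inside the range of the others (2917 to 23931 CPM). It also stood apart in markers of other cells. Mesothelial markers summed to 841.5 CPM (25.0 to 153 in the other SVC libraries) and endothelial markers to 877 CPM (194 to 359). Erythroid markers summed to 52616 CPM (2192 to 39892), and fibroblast and progenitor markers to 13862.5 CPM (6246 to 10043). Neutrophil markers summed to 59.9 CPM (4.58 to 25.2), and macrophage markers to 8636 CPM (11174 to 21082). The part of these in its values was not tested.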
